A study of Gallus gallus with 3 samples.

Results

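The comparison described here sets DT40 cells exposed to the peptide BSP-II (2 µg/ml, 4 h) against untreated DT40 cells (0 µg/ml, 4 h), with 1 microarray on each side. Its members are the probes read well above background on both arrays, without an outlier flag and outside the first 2 columns of the array. That gave 15966 of 42034 probes (38%). Of these, 2644 could be named, and they stand for 2582 of the 3870 named genes on the array.

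DT40 is a chicken B cell lymphoma line that grows in suspension and has long been used to study antibody gene diversification and DNA repair. B cells of birds develop in the bursa of Fabricius, and BSP-II is one of several small peptides that came out of work on extracts of this organ. A signal received by a B cell is usually passed on through kinases and NF-kB within minutes, is followed by immediate-early transcription factors and phosphatases, and then reaches the genes of growth, division and secretion. The gene families below run from the division machinery through RNA, membranes and metabolism to signalling, protein synthesis and surface genes, and gene roles are those known from mammals.

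The series holds 3 one-colour arrays of total RNA from cells in medium with fetal bovine and avian serum: untreated, BSP-II, and a second peptide, BP5 (0.02 µg/ml, 4 h). The third array is used only for values set side by side, since it shares the untreated array and differs in dose. No group has a replicate, so no difference could be set against a spread between cultures, and no test was made. Per the file headers all arrays lay on 1 slide, but the untreated one was scanned separately from those of the peptides, and the effects of scan and peptide cannot be told apart.

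Each array's processed signals had a 75th percentile of 263 (untreated) or 158 (BSP-II), and 46.6% and 39.6% of probes were well above background. Signal is given below as a level, a multiple of that percentile on the same array. The lowest signal called well above background corresponded to a level of 0.115 on the untreated array and of 0.231 on the BSP-II array. The log2 ratio is that of the BSP-II level to the untreated level. The error given with it is the scanner software's own error for both spots, which covers the reading of the spots and nothing else.

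Most genes differed little. The log2 ratio of the 2582 genes had a median of 0.01 with quartiles of -0.24 and 0.29, and 2166 genes (83.9%) lay within 1.5-fold. At 2-fold or more, 54 genes (2.09%) were higher and 54 genes (2.09%) were lower with BSP-II, 108 (4.18%) in all. Counts of family members past 2-fold below are to be read beside these shares. Each of the 108 rests on 1 probe, so none has a second probe to set beside it. The median scanner error was 0.20, and 50 pairs of probes for the same gene differed in their log2 ratio by a median of 0.43, by 1 or more in 6 pairs. Lower genes reached further from 0 than higher ones: 9 had a log2 ratio of -2 or less, while the highest of the increases was 1.83.

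**Figure D1:**
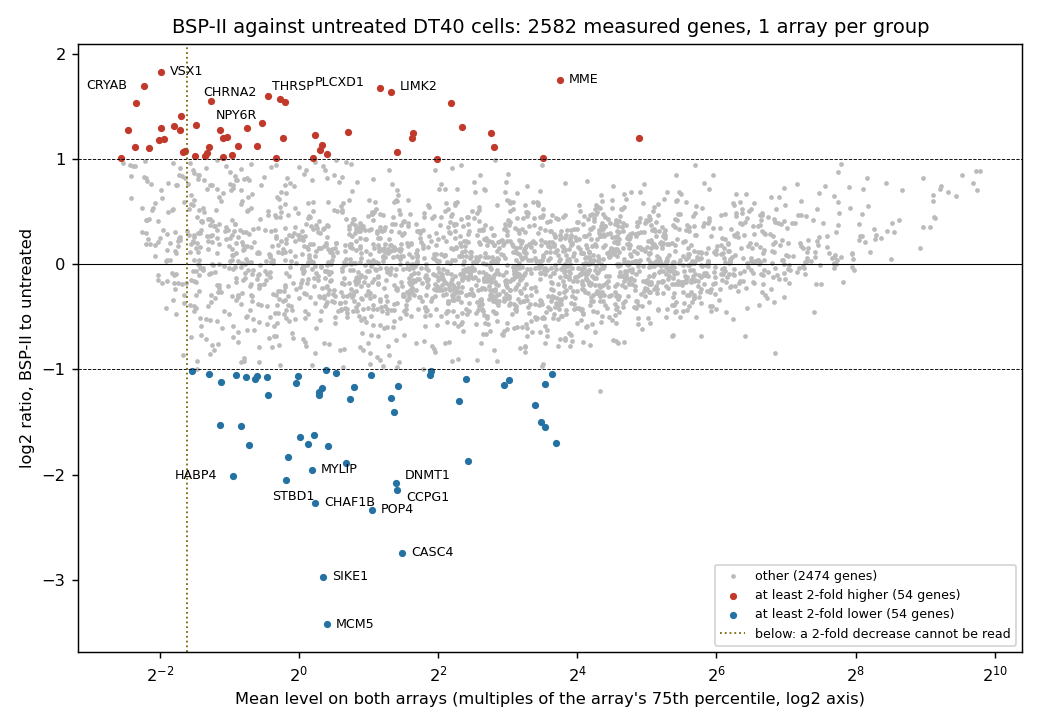
Log2 ratio of BSP-II to untreated (vertical axis) against the mean level on both arrays (horizontal log2 axis, multiples of the array's 75th percentile) for each of the 2582 measured genes; red and blue points are the 54 higher and 54 lower genes, and the dotted line marks the level of 0.327 below which a 2-fold decrease could not be read. The lower genes reach -3.42 (MCM5) and the higher ones 1.83 (VSX1), and 1 grey point beyond -1 is KDELR2, whose probes disagree.

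In the DNA replication family 1 of 26 measured genes was lower and 0 higher, where 2.09% of all genes were lower. The lower gene was MCM5, a subunit of the helicase that unwinds DNA ahead of the fork. Its level was 4.33 on the untreated array and 0.404 on the BSP-II array. Its log2 ratio of -3.42 (scanner error 0.26), a 10.7-fold lower level, was the lowest of all measured genes. The family's median was 0.00, and its other measured MCM genes lay between -0.44 for MCM6 and 0.54 for MCM3. The RNA came from whole cultures, so fewer cells of a kind and less RNA per cell cannot be told apart.

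In the chromatin assembly and DNA methylation family 2 of 19 measured genes were lower and 1 higher, where 2.09% of all genes were lower and 2.09% higher. CHAF1B, a subunit of the factor that places histones on replicated DNA, stood at 2.59 untreated and 0.538 with BSP-II (log2 ratio -2.27, error 0.24). DNMT1, which copies DNA methylation onto the new strand, stood at 5.42 and 1.28 (-2.08, error 0.21). Both were lower on the treated array by more than 4-fold. A gene of the same family went the other way: SSRP1, a subunit of the histone chaperone FACT, was at 8.02 and 16.2 (1.01, error 0.20). It fell short of 2-fold with quantile normalization (0.997) and once the ratio of neighbouring probes was subtracted (0.59). The median of the 19 family members was 0.12, which turned to -0.06 or lower with quantile, loess or neighbour correction. DNMT3B, which sets methylation anew, had a log2 ratio of 0.95.

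Among chromatin modifiers and remodellers, 2 of 51 measured genes were lower and 0 higher, where 2.09% of all genes were lower. CBX3, a heterochromatin protein that binds methylated histone H3, was at 19.9 untreated and 6.81 with BSP-II, a log2 ratio of -1.55 (error 0.20). ARID4A, which joins the retinoblastoma protein to histone deacetylases, stood at 1.86 and 0.804 (-1.21, error 0.22). HIST2H3D, a histone H3 gene, had a log2 ratio of -1.63 (error 0.23). The family's median was -0.14, which normexp background correction turned to 0.11 while it moved the median of all genes to 0.15, and 20 of its 51 members lay above the median of all genes, where 50% of all genes do.

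Of 40 measured genes on the list of mitosis and chromosome segregation, 2 were lower and 0 higher, where 2.09% of all genes were lower. STIL and BORA, mitotic genes not on the list, were also lower, at -1.13 and -1.11. TTK, the kinase at the head of the spindle checkpoint, was at 0.774 untreated and 0.268 with BSP-II (-1.53, error 0.32). KIF14, a kinesin of cytokinesis, stood at 1.13 and 0.478 (-1.24, error 0.25). After normexp these genes fell short of 2-fold: TTK was at -0.79, KIF14 at -0.71, STIL at -0.61 and BORA at -0.65. The family's median was -0.16 and kept its sign under all 6 other ways of setting the values, between -0.22 and, after normexp, -0.02. Of the 40 members 14 lay above the median of all genes. At the other end CDC20, the activator of the anaphase-promoting complex, had a log2 ratio of 0.64.

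The microtubule genes overlap that family through KIF14. STMN1, which takes microtubules apart, was at 23.2 untreated and 7.15 with BSP-II, a log2 ratio of -1.70 (error 0.20) in one of the brighter spots among the lower genes. The 21 measured tubulin, kinesin and dynein genes had a median of -0.15, which normexp turned to 0.12. TUBGCP3, a part of the ring that starts microtubules, was read above background on the untreated array only, with a level at least 3.51-fold lower after BSP-II.

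The 25 measured cyclins, cyclin-dependent kinases and their regulators held 0 genes past 2-fold. Their median was -0.03 and ranged from -0.07 to 0.25 over the ways of setting values, with FOXM1, a transcription factor of the division genes, lowest at -0.43. DNA repair held 1 gene past 2-fold among 35, POLQ, the polymerase of end joining by short homologies. POLQ was at 1.86 untreated and 0.928 with BSP-II (-1.01, error 0.22). It fell short of 2-fold under every other way of setting values, between -0.989 with quantile normalization and -0.70 after normexp. BRCA1 and ATM stood at -0.88 and -0.92, and PARP1, a sensor of broken strands, at 0.84.

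POP4, a protein subunit of ribonuclease P, was at 4.64 untreated and 0.919 with BSP-II, a log2 ratio of -2.34 (error 0.22). RBM10, a splicing regulator, stood at 1.69 and 0.477 (-1.83, error 0.25), and was the lone gene past 2-fold of 21 in the spliceosome family. NELFCD, a subunit of the complex that holds RNA polymerase II near the promoter, stood at 0.952 and 0.328 (-1.54, error 0.29). The medians of the spliceosome and RNA polymerase II families were 0.05 and 0.07.

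At the nuclear pore, 1 of 15 measured genes was higher and 1 lower, where 2.09% of all genes were higher and 2.09% lower. NUP50, a pore protein that helps import, was at 4.19 untreated and 1.58 with BSP-II (-1.41, error 0.21). XPO7, an exportin, stood at 0.161 and 0.396 (1.30, error 0.34), a dim spot whose untreated level lay below the lowest level the BSP-II array could read. XPO7 could be measured only if higher with BSP-II, so its direction is no result. The 17 measured heterogeneous nuclear ribonucleoproteins and RNA helicases had 0 genes past 2-fold and a median of -0.26, between -0.26 and -0.01 over the ways of setting values. HNRNPH1, a splicing regulator, was the lowest of these 17 at -0.68. SKIV2L2, an RNA helicase not on this list, was lower at 17.2 and 7.81 (-1.14, error 0.20), and at -0.88 after its neighbours were subtracted.

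In the lysosome and autophagy family 3 of 27 measured genes (11.1%) were lower and 0 higher, where 2.09% of all genes were lower, and the median was 0.00. CCPG1, a receptor that feeds the endoplasmic reticulum into autophagy, was at 5.61 untreated and 1.27 with BSP-II, a log2 ratio of -2.14 (error 0.21). STBD1, which tethers glycogen to membranes, stood at 1.80 and 0.434 (-2.05, error 0.26). OPTN, an autophagy receptor, stood at 2.06 and 1.01 (-1.04, error 0.22).

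Outside the listed families CASC4, a membrane protein of the Golgi, was at 7.21 untreated and 1.08 with BSP-II (-2.74, error 0.21). PMM2, the phosphomannomutase that feeds N-glycosylation, stood at 10.3 and 2.83 (-1.87, error 0.21). In the folding and unfolded protein response family, where CCPG1 was the lone gene past 2-fold of 27, the median was also 0.00 and XBP1, the transcription factor of that response, was highest at 0.95.

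The secretory coat and tether family, with 72 measured genes, had 0 past 2-fold and a median of -0.03, which was 0.18 after normexp. KDELR2, which returns escaped proteins to the endoplasmic reticulum, had a mean log2 ratio of -1.20 from a pair of probes that disagreed, at -2.43 and 0.02, and so was not counted. Of 35 Rab, Arf and Ran GTPases 1 was past 2-fold, ARF5, at 0.847 untreated and 1.86 with BSP-II (1.13, error 0.21).

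In sterol and fatty acid metabolism 3 of 32 measured genes (9.38%) were lower and 0 higher, where 2.09% of all genes were lower. Of the lower genes, MYLIP, the ubiquitin ligase that sends the low-density lipoprotein receptor to degradation, was at 2.24 untreated and 0.578 with BSP-II (-1.95, error 0.23). CPTP, which carries ceramide-1-phosphate between membranes, stood at 2.44 and 0.737 (-1.73, error 0.22).

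Another lipid gene, KDSR, which reduces ketosphinganine in ceramide synthesis, was above background on the untreated array only, so that its level was lower by at least 4.52-fold. The family's median was -0.05, and 0.05 after normexp. MTMR2, a phosphatase of phosphoinositides outside that list, was at 1.98 and 0.607 (-1.70, error 0.23). MARCH5, a ubiquitin ligase of the mitochondrial outer membrane, stood at 3.09 and 0.835 (-1.89, error 0.22).

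ACO1, which is both an aconitase and an iron-responsive RNA-binding protein, was at 4.02 untreated and 1.81 with BSP-II (-1.15, error 0.21) and was the lone gene past 2-fold of 30 in glycolysis and the tricarboxylic acid cycle. Oxidative phosphorylation held 0 genes past 2-fold of 11 and a median of 0.23, which was 0.00 with quantile or loess normalization. Mitochondrial import and dynamics had the lowest median of the 48 families, -0.26, with 0 of 11 genes past 2-fold, PMPCA lowest at -0.80 and the median at -0.01 after normexp correction. ABCC4, an exporter of nucleotides and drugs, was at 11.5 and 5.21 (-1.15, error 0.20) and fell short of 2-fold, at -0.75, once the ratio of neighbouring probes was subtracted.

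Among the higher genes, 5 stayed past 2-fold under all 6 other ways of setting the values. MME, the membrane peptidase neprilysin, which early lymphoid cells carry on their surface, was at 7.32 untreated, 24.6 with BSP-II and 19.6 with BP5. Its log2 ratio of 1.75 (error 0.20), a 3.37-fold higher level, was the second highest of all genes and the highest of the genes whose mean level was above 1. HES4, a repressor of the Notch pathway's Hes family, stood at 2.68 and 7.74 (1.53, error 0.20).

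LIMK2, the kinase that switches off the actin-severing protein cofilin, was at 1.42 untreated and 4.41 with BSP-II (1.63, error 0.21). PLCXD1, a protein with a phospholipase C domain, stood at 1.25 and 3.99 (1.67, error 0.21), and ICMT, which methylates the prenylated ends of Ras proteins, at 2.80 and 5.62 (1.00, error 0.20). These spots were well above the levels at which the arrays lose genes. Of 54 genes of the actin cytoskeleton and its GTPases, LIMK2 and RHOB were higher and ARPC1A, a subunit of the actin-branching complex, was lower at 16.8 and 6.62 (-1.34, error 0.20), around a median of 0.00. RHOB was too dim untreated to be measured unless higher with BSP-II, so its direction is no result.

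In the Toll-like receptor and NF-kB family 1 of 20 measured genes was lower and 1 higher, where 2.09% of all genes were lower and 2.09% higher. SIKE1, which restrains the kinase IKK-epsilon downstream of Toll-like receptors, was at 3.57 untreated and 0.455 with BSP-II, a log2 ratio of -2.97 (error 0.25), in an area of the array whose other probes had a median of 0.65. NFKBIE, an inhibitor that keeps NF-kB in the cytoplasm, stood at 3.23 and 8.0 (1.31, error 0.20) and at 0.96 after the neighbours were subtracted. NFKBIA, its better-known relative, had a log2 ratio of 0.47. The family's median was -0.10, which normexp turned to 0.09, and 5 of 20 lay above the median of all genes.

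In the interferon family 1 of 19 measured genes was higher and 1 lower, where 2.09% of all genes were higher and 2.09% lower. JAK1, a kinase of interferon and cytokine receptors, was at 3.91 untreated and 1.61 with BSP-II (-1.27, error 0.21). IFNW1, an interferon, stood at 0.277 and 0.601 (1.12, error 0.26). IRF7, which drives type I interferon genes, was above background on the untreated array only, at a level of 0.966, which puts it at least 4.18-fold lower after BSP-II, and the family's median was 0.11.

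Of 71 cytokine and chemokine genes on the array 52 were below background on both arrays, 7 were read on the untreated array only, 0 on the BSP-II array only and 12 on both. Among those 12, 4 were higher and 0 lower, where 2.09% of all genes were higher, and the family's median was -0.02. FGF3, a fibroblast growth factor, was at 2.02 untreated and 4.78 with BSP-II (1.24, error 0.21). FGF4 stood at 0.222 and 0.466 (1.07, error 0.29), and IL4, a cytokine of B cell help, at 0.120 and 0.242 (1.01, error 0.44).

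The last 2 of these, with IFNW1, were dim on the untreated array, near or below the lowest level that the BSP-II array could read. FGF4 and IL4 lay below it, so they could be measured only if higher with BSP-II, and their direction is no result. The mean levels of FGF4, IL4 and IFNW1 fell in the 2 dimmest of 10 equal bins of probes. In these bins 9.96% to 18.7% of all probes were higher. After normexp correction IL4 was at -0.01, FGF4 at 0.19 and IFNW1 at 0.21, while FGF3 was at 1.31. FGF3 fell just short of 2-fold, at 0.99, once neighbouring probes were subtracted. Among the 26 measured receptors of cytokines, growth factors and surface immune signals, 1 was past 2-fold, LY86, which is described with the B cell genes.

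The immediate-early genes had one of the higher medians, 0.30, between 0.22 and 0.40 over the ways of setting values, and 14 of 18 measured members lay above the median of all genes. DUSP6, a phosphatase that shuts off ERK, was at 0.812 untreated and 1.63 with BSP-II (1.00, error 0.21). It fell short of 2-fold after normexp (0.66), with quantile normalization (0.999) and once neighbouring probes were subtracted (0.98). DUSP1 had a log2 ratio of 0.72. RHOB, a short-lived GTPase, stood at 0.134 and 0.289 (1.11, error 0.40), and at -0.07 after normexp correction. RHOB's untreated level lay below 0.231, the lowest that the BSP-II array could read. It could be measured only if higher with BSP-II, so its direction is no result, and the count of 14 includes it. MYC, the growth regulator that DT40 cells express strongly, was at 646 untreated, 1194 with BSP-II and 958 with BP5 (0.89, error 0.20), and at 0.06 after quantile normalization.

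In the Ras and MAP kinase family DUSP6 was the higher gene and RASA2, a protein that switches Ras off, the lower one, at 2.60 and 1.15 (-1.17, error 0.21), of 22 measured. The phosphoinositide, TOR and AMP kinase family held 0 genes past 2-fold of 21, with PIK3CA, a catalytic subunit of phosphoinositide kinase, lowest at -0.95. The phosphoinositide phosphatase MTMR2, at -1.70, was not on this list. In apoptosis, PDCD10, a scaffold of the cerebral cavernous malformation complex, was the lone gene past 2-fold of 24, at 7.73 untreated and 3.14 with BSP-II (-1.30, error 0.21).

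Cytosolic ribosomal proteins had the highest median of the 48 families, 0.63, with 14 of 14 measured genes above the median of all genes and 0 past 2-fold, but quantile normalization put that median at -0.03 and the authors' deposited values at -0.02. Loess and neighbour subtraction gave 0.33 and 0.44. RPS15 was highest, at 626 untreated and 1160.2 with BSP-II (0.89, error 0.20), and RPS14 lowest, at 236 and 255 (0.11, error 0.20). RPL37 was apart from these: its probe was read at a level of 0.965 on the untreated array and not above background with BSP-II, at least 4.17-fold lower.

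The 10 genes with the brightest spots on the BSP-II array included 6 of these proteins, among them RPS15, RPL7A, RPLP1, RPL6 and RPL36, beside MYC, FTH1, PKLR and ITGB1BP3. Their log2 ratios lay between 0.64 for FTH1, the heavy chain of ferritin, and 0.89, and between -0.10 and 0.17 after quantile normalization. Genes of ribosome assembly are dimmer, and 10 of 11 lay above the median of all genes with a family median of 0.20, between 0.18 and 0.51 over the ways of setting values. RIOK2, a kinase of the small subunit's maturation, was at 4.39 and 10.4 (1.24, error 0.20) and at 0.81 after its neighbours were subtracted.

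The lists of translation factors (23 measured), aminoacyl-tRNA synthetases (16), the proteasome (20), deubiquitinases (11) and ubiquitin conjugation (43) held 0 genes past 2-fold, with medians from -0.01 to 0.16. The ubiquitin ligases MYLIP, MARCH5 and UBR2, lower at -1.95, -1.89 and -1.09, were not on the ubiquitin conjugation list. EIF2S2, a subunit of the factor that brings the initiator tRNA, was just short of 2-fold at 4.85 and 2.43 (-1.0, error 0.21). SKP1, the adaptor of the SCF ubiquitin ligases, was above background on the untreated array only and had the largest bound, at least 5.16-fold lower with BSP-II. Of 38 chaperones 2 were higher and 1 lower, where 2.09% of all genes were higher and 2.09% lower. CRYAB and HSPB1, both small heat shock proteins, were at 1.70 and 1.02, and DNAJC13, an endosomal co-chaperone, at -1.06. CRYAB was too dim untreated to be measured unless higher with BSP-II, so its direction is no result. HSPB1 fell short of 2-fold with normexp (0.35), quantile (0.92) and loess (0.78) correction, and DNAJC13 with normexp (-0.74) and neighbour subtraction (-0.90).

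**Figure D2:**
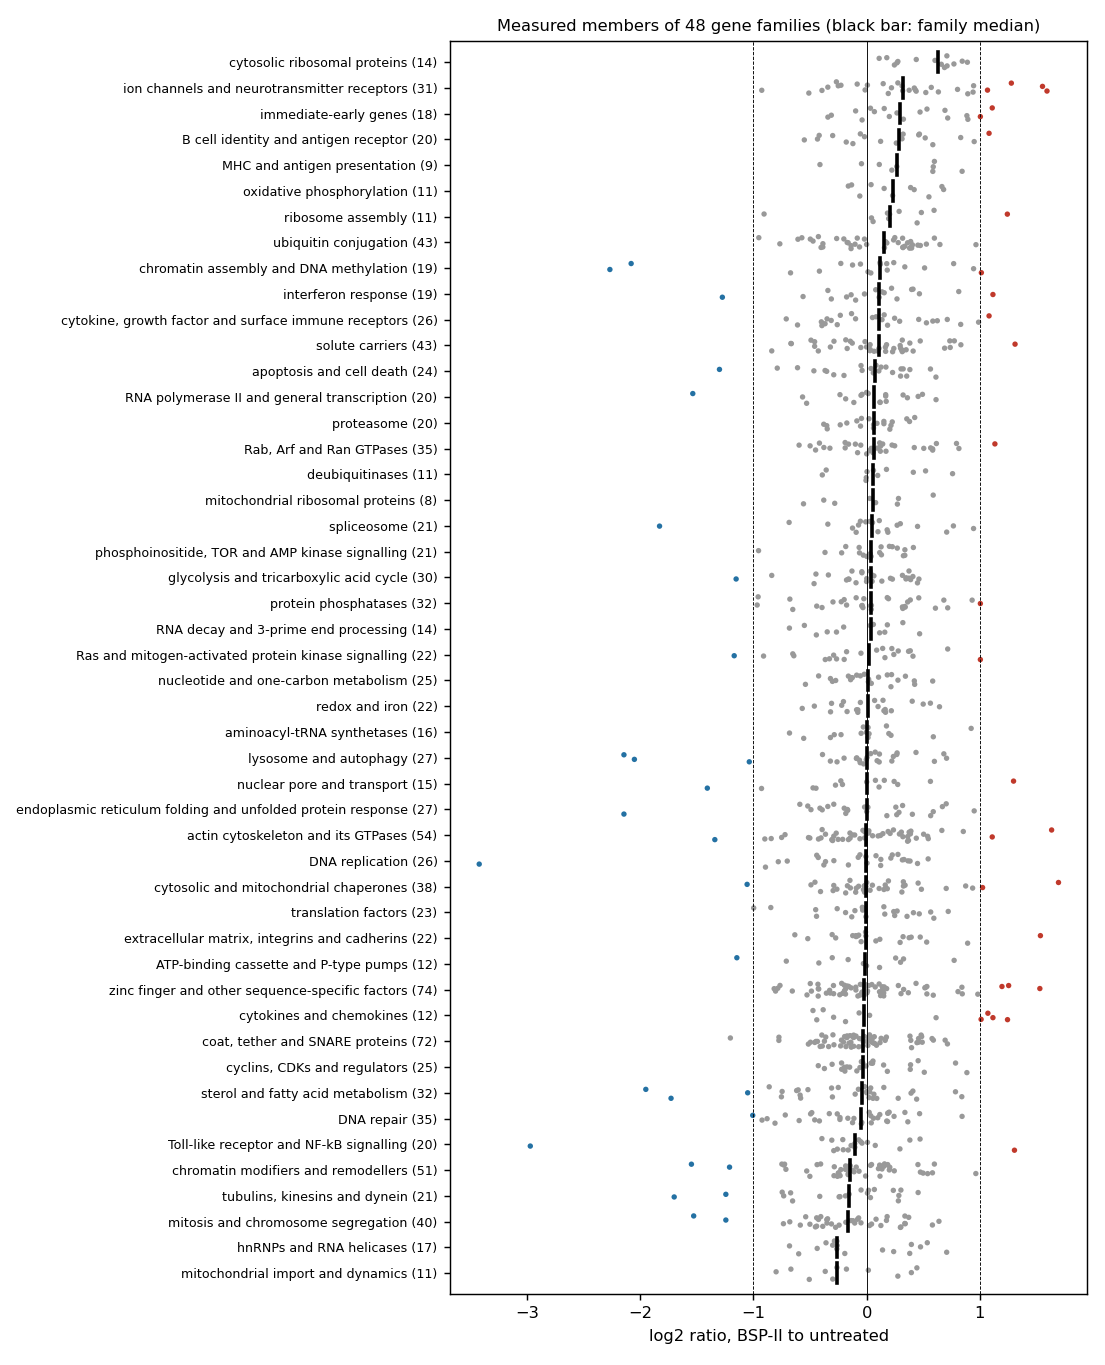
Log2 ratio of BSP-II to untreated (horizontal axis) for the measured members of each of 48 gene families (rows, number of measured members in brackets); red and blue points are genes at least 2-fold higher and lower, and black bars are family medians. The medians run from -0.26 for mitochondrial import and dynamics to 0.63 for cytosolic ribosomal proteins, 39 of 48 lie within 0.2 of 0, and 17 families hold 0 genes past 2-fold.

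Marker genes were read to check the label of the cells. Of 11 B cell markers on the array 8 were above background on the untreated array and 7 on the BSP-II array, among them JCHAIN, the joining chain of secreted antibody, IRF4, POU2AF1, IKZF1, SYK and BTK, while CD79B, PAX5 and EBF1 were not well above background on either. JCHAIN was at 162 untreated and 194 with BSP-II (0.26, error 0.20), and IRF4 at 85.4 and 118 (0.47, error 0.20). Log2 ratios were -0.30 for SYK, -0.18 for IKZF1, 0.12 for POU2AF1 and 0.52 for BTK, and LYN was read on the untreated array only. The summed level of the markers, most of it from JCHAIN and IRF4, was 259 untreated and 324 with BSP-II.

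Markers of other cells were read in part: 2 of 8 T cell markers, 3 of 6 macrophage and granulocyte markers and 3 of 9 fibroblast, epithelial and endothelial markers were measured, with 0 past 2-fold. Their summed levels were 15.2 and 17.1, 12.5 and 13.7, and 4.71 and 5.88. CD3D, a T cell receptor chain, was read at 14.1 and 16, while CD3E, CD4 and CD8A were not well above background. Some of these spots were brighter than those of B cell markers. AVD, on the macrophage and granulocyte list, had a processed signal of 2963 untreated and 1937 with BSP-II, against 1317 and 866 for POU2AF1. Of 4 erythroid and thrombocyte markers 2 were read untreated and 1 with BSP-II, TUBB1, at -0.67, with summed levels of 9.83 and 6.31. Their part in the other results was not tested.

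The wider B cell family had 20 of 32 genes measured, 1 higher and 0 lower, and a median of 0.28 that was 0.03 once neighbouring probes were subtracted. LY86, also called MD-1, which pairs with a Toll-like receptor homologue on B cells, was at 0.850 untreated, 1.80 with BSP-II and 1.79 with BP5 (1.08, error 0.21), and at 1.38 after that subtraction. It fell short of 2-fold after normexp correction (0.71). CD81 and CD74 stood at 0.83 and 0.58, while the family's lowest log2 ratio was -0.55. Of its 20 measured members 12 lay above the median of all genes, where 50% of all genes do. Antigen presentation held 0 genes past 2-fold of 9, with a median of 0.27 and RFXANK, a regulator of MHC class II genes, highest at 0.84.

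Ion channels and neurotransmitter receptors had 31 of 92 genes measured, 4 higher (12.9%) and 0 lower, where 2.09% of all genes were higher. Their median of 0.32 lay between 0.14 and 0.34 over the ways of setting values. Of the 31, 2 were too dim to be read at 2-fold lower, and 3 of the 4 higher ones lay at the levels of the 3 dimmest of 10 equal bins of probes, where 8.58% to 18.7% of all probes were higher. CHRNA2, a nicotinic receptor subunit, was at 0.425 untreated, 1.28 with BSP-II and 2.36 with BP5 (1.59, error 0.22). NPY6R, a receptor of neuropeptide Y, stood at 0.243 and 0.713 (1.55, error 0.26), CHRNA8 at 0.118 and 0.285 (1.28, error 0.42), and GJA4, a gap junction protein, at 1.83 and 3.83 (1.07, error 0.21). After normexp CHRNA2 was at 0.83, NPY6R at 0.45 and CHRNA8 at 0.003, and GJA4 was at 0.87 once neighbouring probes were subtracted. CHRNA8 was too dim untreated to be measured unless higher with BSP-II, so its direction is no result. NPFFR1, a neuropeptide receptor not on the list, was lower at 1.44 and 0.689 (-1.06, error 0.23), and at -0.86 after its neighbours were subtracted. CRHR1 and CNR1, receptors also not on the list, were higher. CRHR1, at 0.153 untreated, could likewise be measured only if higher with BSP-II.

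VSX1, a homeobox factor of the retina, had the highest ratio, at 0.134 untreated and 0.478 with BSP-II (1.83, error 0.35). NCAM1, a neural adhesion molecule, stood at 0.116 and 0.336 (1.54, error 0.40), DAB1, the adaptor of reelin signalling, at 0.191 and 0.506 (1.41, error 0.30), and CRYAB at 0.119 and 0.384 (1.70, error 0.39). All 4 lay under the lowest readable BSP-II level on the untreated array, and after normexp correction they were at 0.12, 0.12, 0.22 and 0.07. They could be measured only if higher with BSP-II, so their direction is no result.

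Other higher genes had brighter spots. CNR1, the brain's cannabinoid receptor, was at 0.513 and 1.49 (1.54, error 0.22) and at 0.87 after normexp. THRSP, a thyroid-hormone-responsive gene of lipid synthesis, stood at 0.479 and 1.42 (1.57, error 0.22) and at 0.90. SIX3, a homeobox factor of the forebrain and eye, at 1.06 and 2.52, had 1.25 (error 0.21) and 0.999, just short of 2-fold. NR2E3, a nuclear receptor of photoreceptors, at 2.03 and 4.65, had 1.20 (error 0.21) and 1.14, but 0.81 once neighbouring probes were subtracted.

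The share of probes past 2-fold differed with signal level. In the dimmest of the 10 equal bins the median log2 ratio was 0.59, with 298 probes higher (18.7%) and 0 lower. That bin spans mean levels of 0.164 to 0.319, at which a 2-fold decrease could not be read on the BSP-II array, so neither value shows a direction. In bins 4 to 9 the medians lay between -0.08 and -0.01, with more probes higher than lower in each. In the brightest bin the median was 0.06, with 4 higher and 1 lower. Over all 15966 probes 946 (5.93%) were higher and 397 (2.49%) lower. The higher genes had a median level of 0.573, the lower genes 1.32 and all measured genes 6.69.

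The range that could be read differed between the arrays. Below a mean level of 0.327 a gene at 2-fold lower would leave the readable range of the BSP-II array, and 90 genes lay there, 15 higher and 0 lower, with a median of 0.43. Among the 2492 genes readable both ways 39 (1.57%) were higher and 54 (2.17%) lower, with a median of 0.00. At mean levels above 1 there were 19 higher and 37 lower genes.

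**Figure D3:**
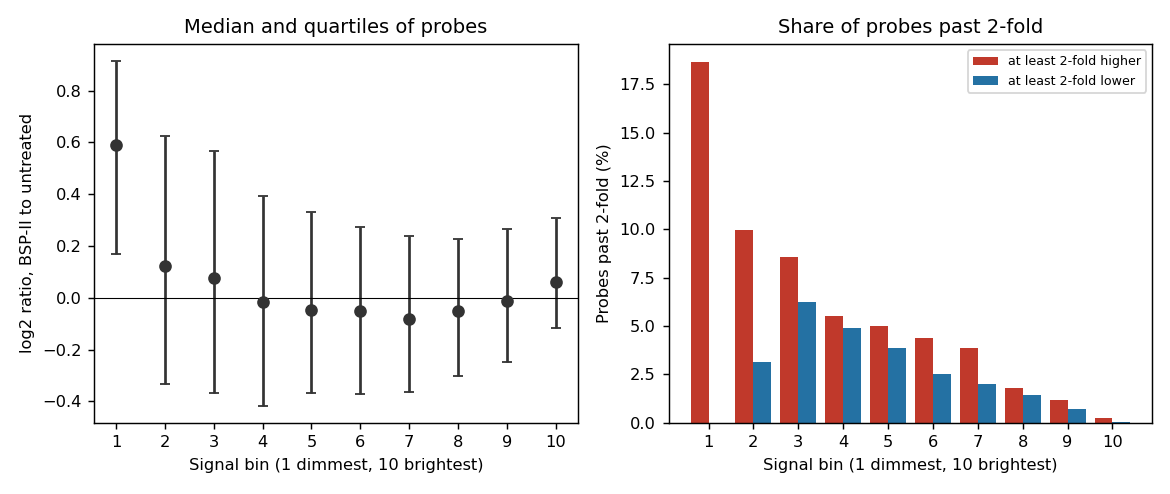
Left, median log2 ratio of BSP-II to untreated with quartiles as bars for probes in 10 equal bins of mean signal (about 1597 probes each); right, percent of probes in each bin at least 2-fold higher (red) or lower (blue). The dimmest bin, in which a 2-fold decrease could not be read, has a median of 0.59 and 18.7% of probes higher, and the share of higher probes declines to 0.25% in the brightest bin.

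Genes read on 1 array only have a bound in place of a ratio. There were 176 named genes above background on the untreated array only and 7 on the BSP-II array only. The lowest readable level was 0.115 on the untreated and 0.231 on the BSP-II array, so these counts show no direction. The bound was above 1-fold for 49 of the 176 and at least 2-fold for 12 of them and for all 7 of the others. It was set against the higher of the dim probe's own signal and the lowest signal well above background on its array. For the 7 this was the level of 0.115, while a gene read with BSP-II stood at 0.231 or more. Their bounds of at least 2-fold were thus fixed in advance and show no direction. Besides SKP1, KDSR, IRF7 and RPL37, the largest bounds were those of CDIN1 (at least 3.77-fold lower), a gene tied to a congenital anaemia, and OTUD6A (at least 3.65-fold lower), a deubiquitinase.

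Genes read only with BSP-II were dim. ADPRH, which removes ADP-ribose from proteins, was at least 3.69-fold higher, and FGFR1OP, a centrosome protein, at least 3.37-fold. CLDN1, a tight junction protein, was at least 2.85-fold higher, LSAMP, a neural adhesion protein, 2.71-fold, MASP1, a protease of the lectin complement pathway, 2.43-fold, and PAAF1, a proteasome assembly factor, 2.26-fold.

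Ratios also varied with place on the array. Probes in columns 3 to 43 had a median log2 ratio of 0.16 and those in columns 44 to 85 one of -0.08. The left side held 38 of the 54 higher genes (70.4%) and 20 of the 54 lower genes (37.0%), against 50.7% of all measured genes. Column 13 held 7 of the 54 higher genes and 1 of the 54 lower genes, against 39 of all 2582 measured genes. Counts for other single columns are not reported here, so these do not set column 13 apart. With the median ratio of probes within 5 rows and 5 columns subtracted, 53 genes were higher and 47 lower, of which 34 and 41 were among the 54 and 54.

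**Figure D4:**
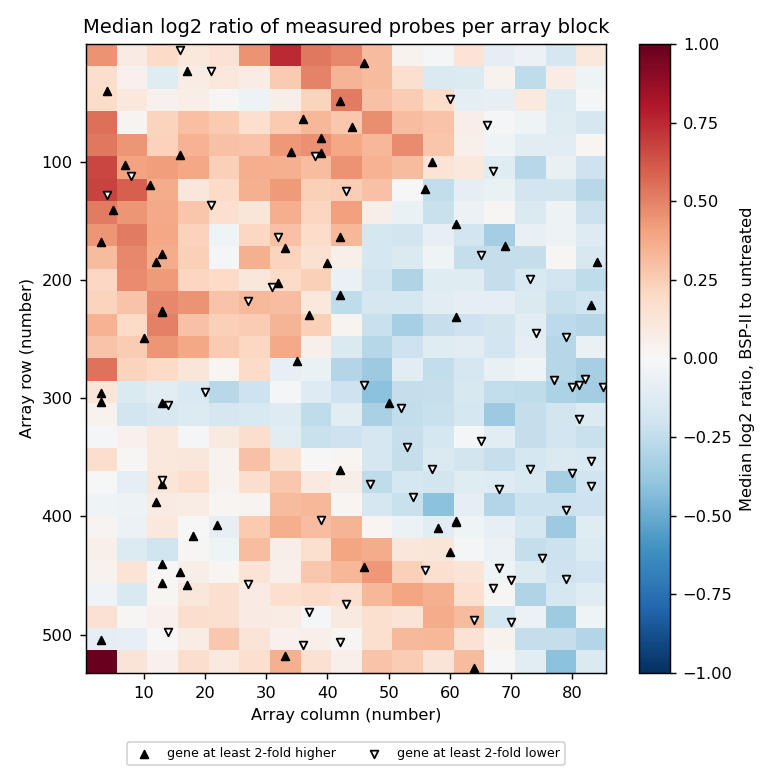
Median log2 ratio of BSP-II to untreated (colour) for measured probes in blocks of 19 rows and 5 columns of the array, with the first 2 columns shown; axes are array column and row numbers, filled and open triangles mark the 54 higher and 54 lower genes. Blocks on the upper left are mostly above 0 and those on the right below, between -0.41 and 0.74 outside the first 5 columns.

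Across the 6 other ways of setting the values, 24 of the 108 genes stayed past 2-fold in all of them, 19 lower and 5 higher. The 19 lower ones run from MCM5, SIKE1 and CASC4 to STMN1, CBX3 and RPL7L1, and the smallest size of their log2 ratio over the 6 settings ranged from 2.18 for MCM5 to 1.05 for MTMR2. On the BP5 array, which shares the untreated array and the scan of the BSP-II array, MCM5 was at 0.269, SIKE1 at 0.438, CASC4 at 1.20 and DNMT1 at 0.842. Of these 24 genes HABP4 and RBM10 were not well above background with BP5.

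Of the 108 genes past 2-fold with BSP-II, 102 were well above background with BP5. All of these lay on the same side of the untreated level on both peptide arrays. Both ratios of a gene share the untreated array, so the BP5 array is not an independent reading. BASP1, a membrane-bound brain acid-soluble protein, gave less alike levels of 1.79 untreated, 0.575 with BSP-II and 1.38 with BP5. PDCD10 stood at 7.73, 3.14 and 1.53, and NCAN, a brain proteoglycan, at 0.561, 1.13 and 0.610. The doses differ 2 against 0.02 µg/ml, so no comparison was made between the peptides.

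**Figure D5:**
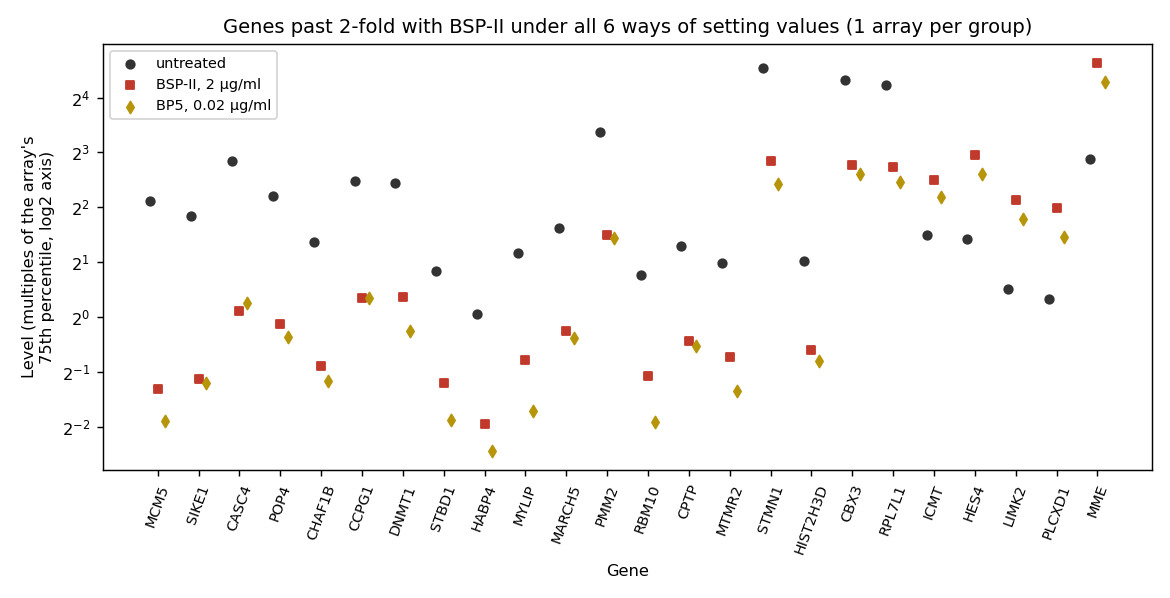
Level (vertical log2 axis, multiples of the array's 75th percentile) on the untreated, BSP-II and BP5 arrays for the 24 genes (horizontal axis) that stayed past 2-fold with BSP-II under all 6 other ways of setting values, 1 array per group. For 19 genes the untreated point lies above the BSP-II point and for 5 genes below it, from 4.33 against 0.404 for MCM5 to 7.32 against 24.6 for MME.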

How the data were processed

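The RNA of DT40 cells was labelled with Cy3 and hybridised to 3 arrays, 1 per group. Per the file headers, the authors' deposited spot intensity came from Agilent Feature Extraction 10.5.1.1 (grid build galGal3), which subtracted background, detrended each array and set dim spots to a floor, without normalization between arrays; flags of 0 or 1 mark other spot properties. The authors also deposited a log2 table of 20085 probes, whose normalization the labels do not name; its ratios differed from those after quantile normalization by at most 0.04.

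Control spots, 884 probes in columns 1 and 2 and 146 probes with an outlier flag were left out, leaving 41026. Log2 of the processed intensity minus the array's 75th percentile over non-control probes gave the level, and 0 probes were saturated. Of 5017 probes with a RefSeq accession, 4000 matched the GRCg7b gene table, used for names only; 13322 measured probes stay unnamed here. A gene's ratio is the mean over its measured probes, and a gene counted past 2-fold needs all its probes to be of 1 sign, though all 108 genes counted have 1 measured probe. The submitters' design text speaks of several experiments and cell populations without tying them to the arrays. The number of arrays limits the precision.

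The members, the 48 families and the alternatives were chosen with earlier results of these data known. After the family lists were seen, 42 symbols were removed because the symbol belongs to another kind of gene. Named were the 12 largest increases and decreases, family members past 2-fold or otherwise the highest and lowest, the 6 largest bounds each way, the 10 brightest genes and measured markers, with clone names skipped; other genes were named after their values were seen, and some that the rule picks are not reported here. Alternatives were normexp (offset 50, on median signal, as the files hold no mean signal), 2 other scalings, quantile and loess (span 0.4) normalization, neighbour subtraction, 2 filters, the edge columns, the authors' values and a 1.5-fold threshold. The 6 ways of setting values are the first 6 of these. Python 3.11.15, R 4.3.3 and limma 3.58.1 were used, and the steps were tested on simulated data.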

Additional observations from a re-analysis of the deposited data

Results flagged for a closer look

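A difference between the arrays also appeared in the probes left out of the comparison, those of the first 2 columns of the array. The 245 of them that were well above background on both arrays had a median log2 ratio of BSP-II to untreated of 0.851, with 109 higher (44.5%) and 4 lower, while the other columns had a median of 0.04. The cause was not tested.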

How the results depend on the processing

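With 1 array per group no replicate could be left out. No paired analysis was possible because each group holds 1 array and the groups share a single replicate number. Normexp gave 44 higher and 19 lower genes (69.8% higher, against 50%) and moved the median of all genes to 0.15; it turned IL4 to -0.0077, RHOB to -0.075 and SLC35B1 to -0.020. No filter on dim probes gave 693 and 123 (84.9% higher, median 0.13), loess 37 and 61 (37.8%), quantile normalization and the authors' values 41 and 55 each, and a 1.5-fold threshold 236 and 176. The other scalings (58 and 51), the stricter filter (38 and 40), neighbour subtraction (53 and 47), genes readable both ways (39 and 54, chosen after seeing the data) and the edge columns (74 and 54) kept both counts within 1.5 times. Keeping only genes with 1 probe could not change the counts, since all 108 genes rest on 1 probe. Of 61 named genes past 2-fold, 26 stayed so after normexp, 45 after neighbour subtraction, 51 after loess and 54 after quantile normalization; the causes were not tested. Of 48 family medians, 13 kept their sign in all 6 ways of setting values.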

Other observations

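Among the 10 brightest named spots on the BSP-II array were probes named for PKLR, the pyruvate kinase of liver and red cells, and ITGB1BP3, a nicotinamide riboside kinase best known from muscle. PKLR was at 464 untreated, 760 with BSP-II and 553 with BP5, and ITGB1BP3 at 461, 774 and 649. Both names rest on the RefSeq accession of 1 probe.

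The 13322 measured probes without a name were dimmer, with a median level of 1.57 against 6.68 for named probes. Of these, 891 (6.69%) were higher and 336 (2.52%) lower with BSP-II.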
